A study of Mus musculus with 15 samples.

Results

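The RNA of 9 genes of mast cells and basophils was followed across 15 libraries of lineage-negative bone marrow cells. The cells came from mice that were the secondary recipients of serially transplanted stem and progenitor cells. The genes were Mcpt4, Cma1, Tpsb2, Tpsab1, Cpa3, Mcpt8, Prss34, Ms4a2 and Fcer1a, which are 9 of the 45706 genes in the count table. They were selected on their known levels in these 15 libraries, all of which were used, so their levels and fold changes are given as a description. Counts of members past a threshold of the fit over all genes are printed beside the same share of all genes, and they are not evidence about the members, whose levels had chosen them. The libraries comprised 3 of WT, 4 of Puma-/-, 4 of G3 mTerc-/-Puma+/+ and 4 of a group whose label reads G3 mTerc-/-Puma-/-, here the double-knockout-labelled libraries. The mTerc-/- donors lacked the RNA component of telomerase and were of the third generation bred without it (G3), and the Puma-/- donors lacked PUMA, a BH3-only protein that triggers apoptosis downstream of p53. In every group, stem and progenitor cells of the LSK phenotype had been passed serially through lethally irradiated recipients, and lineage-negative cells were then enriched magnetically from the femurs of the secondary recipients. The labels name no sort of donor against recipient cells, so cells that survived in the host may be included, and they do not say whether each library was 1 animal. The SEs and p-values measure only the spread between these libraries, which may be technical.

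Mast cells and basophils are granulocytes that carry IgE on the high-affinity receptor FceRI and release granule contents when antigen crosslinks it. Mast cells leave the marrow as progenitors and fill their granules with proteases in tissues, whereas basophils mature in the marrow and circulate. Mcpt4 and Cma1 encode mast cell chymases, Tpsb2 and Tpsab1 encode mast cell tryptases, and Cpa3 encodes the granule carboxypeptidase found in both lineages. Mcpt8 and Prss34 encode serine proteases that mark mouse basophils, while Fcer1a and Ms4a2 encode the alpha and beta chains of FceRI.

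The members lie in 2 protease clusters and at single loci of GRCm38, the build of the counts. Cma1, Mcpt4 and Mcpt8 are neighbours on chromosome 14, with 115 kb between Cma1 and Mcpt4 and 19.9 kb between Mcpt4 and Mcpt8. Prss34, Tpsab1 and Tpsb2 are neighbours on chromosome 17, with 43.1 kb and then 20.7 kb between them. Cpa3 lies on chromosome 3, Fcer1a on chromosome 1 and Ms4a2 on chromosome 19. No member shared an exonic base with another gene of GENCODE vM21. Of the 50-base windows of its exons, 5.48% in Mcpt4 also occurred in Cma2 or Mcpt9, 5.38% in Cma1 occurred in Gm48934 and 2.1% in Ms4a2 occurred in Ms4a4b, and none of the windows of the other 6 members occurred in another gene.

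Promoters are shown because the members fell into 2 sets by level, described below, and GATA factors are known to act in both lineages. RefSeq promoters (GRCm38.p6) were at hand for 7 of the 9 members. Each line gives the 250 bases before the RefSeq start, 5′ to 3′ in the direction of the gene, with the letters AGATAA or their reverse complement TTATCT in capitals.

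Prss34, chr17:25298144-25298393, plus strand: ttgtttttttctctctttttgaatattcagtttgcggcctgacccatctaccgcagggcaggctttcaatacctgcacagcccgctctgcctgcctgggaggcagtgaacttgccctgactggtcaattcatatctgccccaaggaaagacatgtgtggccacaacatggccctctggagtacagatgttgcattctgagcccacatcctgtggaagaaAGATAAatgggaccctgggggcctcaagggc

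Cpa3, chr3:20242182-20242431, minus strand: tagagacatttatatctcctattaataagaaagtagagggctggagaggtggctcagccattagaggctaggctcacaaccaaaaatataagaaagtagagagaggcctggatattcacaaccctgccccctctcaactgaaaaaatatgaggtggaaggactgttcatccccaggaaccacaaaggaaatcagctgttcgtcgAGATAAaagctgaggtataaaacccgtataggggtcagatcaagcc

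Ms4a2, chr19:11623720-11623969, minus strand: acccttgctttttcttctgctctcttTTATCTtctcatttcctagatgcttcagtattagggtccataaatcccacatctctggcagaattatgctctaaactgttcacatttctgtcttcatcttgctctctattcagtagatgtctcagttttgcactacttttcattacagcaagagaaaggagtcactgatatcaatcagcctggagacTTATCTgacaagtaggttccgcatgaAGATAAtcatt

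Mcpt4, chr14:56062311-56062560, minus strand: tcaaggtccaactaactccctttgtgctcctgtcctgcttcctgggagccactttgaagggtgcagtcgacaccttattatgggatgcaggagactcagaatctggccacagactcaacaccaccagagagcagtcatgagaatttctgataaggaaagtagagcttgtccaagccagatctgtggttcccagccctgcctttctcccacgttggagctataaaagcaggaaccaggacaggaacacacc

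AGATAA, searched on both strands, was present in 4 of the 7 member promoters and in 9.99% of the 32851 promoters of the same length. In Prss34 the match began 31 bases before the start and in Cpa3 46 bases before it. Ms4a2 held 3 matches, beginning 224, 37 and 11 bases before the start, and Fcer1a held 1 match beginning 92 bases before it. Mcpt4, Cma1 and Mcpt8 did not hold these letters in this window, although Mcpt8 varied with the genes that did (below). Other spellings of a GATA site were not searched. The Mcpt4 line above holds tgataa and the Cma1 window holds ctatct, so the search does not show that these promoters lack GATA sites. TGTGGT, a RUNX motif, was found in 4 of the 7 as well (Cpa3, Fcer1a, Mcpt4 and Mcpt8) and in 14% of all promoters, so it crossed the 2 sets. The C/EBP palindrome TTGCGCAA was in none of the 7 and in 0.164% of all. CATGTG, an E-box of the kind bound by MITF, was found in Fcer1a and Prss34 and in 12.3% of all promoters. These matches are letters in a window, and binding was not measured.

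Levels are given as normalized CPM, which are counts scaled to the TMM-adjusted library total, and log2 fold changes come from edgeR. The libraries held 102790519 to 158367059 counts, so that 3 counts, the upper limit that a count of 0 allows, corresponded to at most 0.0296 CPM for counting error only. Replicate 2 of the double-knockout-labelled libraries stood apart from the other 14 and is reported separately. It held the highest level of 22.4% and the lowest level of 24.1% of the 18983 genes tested, and its summed erythroid markers were 1228 CPM, beside 28.5 to 203 CPM in the other libraries. Bbc3, which encodes PUMA, was at 5.04 to 6.83 CPM in Puma-/-, but at 13.5 to 17.1 CPM in the double-knockout-labelled libraries, close to the 9.71 to 23.6 CPM of WT. Comparisons with these libraries therefore rest on their label. Terc had at most 1 count in each mTerc-/- library, beside 7 to 17 counts in WT and 4 to 11 in Puma-/-, so it was low in every library.

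The chymases and tryptases of mast cells were close to 0 in most libraries and high in 1 or 2. Mcpt4 was at 0.0198, 0.0279 and 0.221 CPM in the 3 WT libraries and at 0, 0.0978, 0.00896 and 0.0091 CPM in the 4 Puma-/- libraries. In G3 mTerc-/-Puma+/+ it was at 17.7 CPM in replicate 1 and at 0, 0.0251 and 0 CPM in the other 3 libraries. In the double-knockout-labelled libraries it was at 0.0315, 1.24 and 0.0549 CPM in replicates 1, 3 and 4, and at 247 CPM in replicate 2. A single library thus set the Mcpt4 level of each mTerc-/- group, and the other libraries of both groups lay between 0 and 1.24 CPM, overlapping WT and Puma-/-. In RNA of mixed cells, a change in the number of mast cells or basophils and a change in RNA per cell cannot be told apart.

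Tpsb2, a tryptase stored in mast cell granules, followed Mcpt4 library by library. Its level was 0.0198, 0.0186 and 0.142 CPM in WT, and 0.0084, 0.107, 0.0269 and 0 CPM in Puma-/-. It reached 11.6 CPM in replicate 1 of G3 mTerc-/-Puma+/+, where the other 3 libraries were at 0, 0.00837 and 0.0374 CPM. It was at 169 CPM in replicate 2 of the double-knockout-labelled libraries, beside 0.0315, 0.864 and 0.0784 CPM in replicates 1, 3 and 4. Within each of the 4 groups, the same library was highest for Tpsb2 and for Mcpt4.

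Cma1, the second chymase, differed from Mcpt4 and Tpsb2 in having counts in every library. It was at 0.286, 0.372 and 0.372 CPM in WT and at 0.924, 0.329, 0.654 and 0.992 CPM in Puma-/-. It was at 10.5, 0.0886, 0.402 and 0.561 CPM in G3 mTerc-/-Puma+/+ and at 0.239, 160, 1.11 and 0.22 CPM in replicates 1 to 4 of the double-knockout-labelled libraries. Replicate 1 of G3 mTerc-/-Puma+/+ and replicate 2 of the double-knockout-labelled libraries were again the highest, while Puma-/- libraries reached levels of Cma1 that had no counterpart in Mcpt4 or Tpsb2.

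Tpsab1, the other tryptase, was at 0 counts in 12 of the 15 libraries. It had 17 counts in replicate 1 of G3 mTerc-/-Puma+/+, 445 counts in replicate 2 of the double-knockout-labelled libraries and 1 count in replicate 4 of that group. It did not pass the count filter, so no fold change was fitted for it, and the filter kept the other 8 members. Tpsab1 of the C57BL/6 strain is known to carry a splice-site defect.

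**Figure D1:**
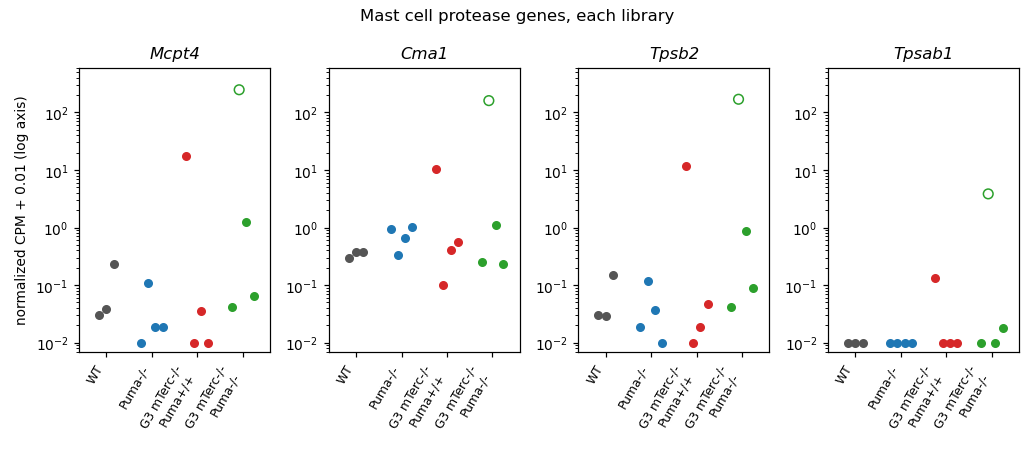
Normalized CPM plus 0.01 (log axis) of the 4 mast cell chymase and tryptase genes in each library, by genotype, with 1 point for each library and an open symbol for replicate 2 of the double-knockout-labelled libraries. The open symbol (Mcpt4 at 247 CPM) and 1 library of G3 mTerc-/-Puma+/+ (Mcpt4 at 17.7 CPM) lie far above the rest in each panel.

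The 2 libraries with high mast cell proteases held them in nearly the same proportions. Replicate 2 of the double-knockout-labelled libraries exceeded replicate 1 of G3 mTerc-/-Puma+/+ by a ratio of 14 for Mcpt4 (95% counting interval 13.4 to 14.6), 14.6 for Tpsb2 (13.9 to 15.4) and 15.2 for Cma1 (14.4 to 16.1). Tpsab1 had a ratio of 30.7 with a wide interval of 18.9 to 53.1 that did not reach those of the other 3. Per kilobase of exon, Tpsb2 was at 0.475 of the Mcpt4 level in the first library and at 0.455 in the second, and Cma1 was at 0.658 and 0.606. These exact binomial intervals cover counting error only and compare 2 libraries, not genotypes.

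From a list of 20 other mast cell genes, 4 that were picked after their values were seen were high in the same 2 libraries. The list as a whole did not set them apart, since its summed level was 1626 CPM in replicate 2 of the double-knockout-labelled libraries and 1170 CPM in replicate 1 of G3 mTerc-/-Puma+/+, beside 1043 to 1673 CPM in the other 13. Mrgprb1, a receptor gene of mast cells, had 563 and 63 counts in them, 1 count in replicate 3 of the double-knockout-labelled libraries and 0 counts in the other 12 libraries. Mrgprb2, the receptor for basic secretagogues, had 309 and 33 counts, 4 in that replicate 3 and at most 1 count elsewhere. Tpsg1, a membrane-bound tryptase, had 302 and 23 counts beside at most 3 elsewhere, and Tph1, the first enzyme of serotonin synthesis outside neurons, had 142 and 13 beside at most 5. Their ratios between the 2 libraries were 10.5 for Mrgprb1 (8.06 to 13.8), 11 for Mrgprb2 (7.64 to 16.2), 15.4 for Tpsg1 (10.1 to 24.6) and 12.8 for Tph1 (7.24 to 24.6). The chymase genes of mucosal mast cells did not share this pattern, since Mcpt1 had 3 and 0 counts in the 2 libraries and Mcpt2 had 0 in both.

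Genes used by mast cells and by other marrow cells gave smaller ratios. Kit, the receptor for stem cell factor, had a ratio of 1.16 (1.14 to 1.18) between the same 2 libraries, Cpa3 1.06 (1.04 to 1.08) and Gata2 0.872 (0.849 to 0.895). Il1rl1, the IL-33 receptor, had a ratio of 2.45 (2.32 to 2.58) and Gata1 one of 4.11 (3.89 to 4.34). Mitf, a factor required for mast cells, had a ratio of 0.681 (0.616 to 0.753). Among the 20 mast cell genes, 10 were highest in replicate 2 of the double-knockout-labelled libraries and 3 were lowest there.

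**Figure D2:**
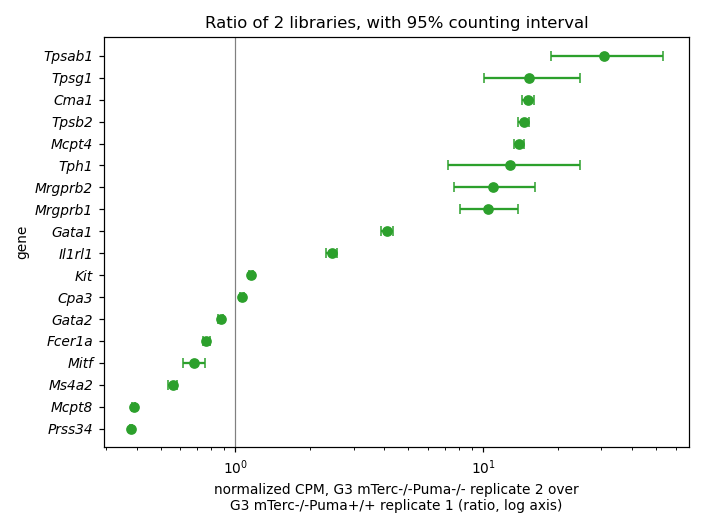
Ratio of normalized CPM in replicate 2 of the double-knockout-labelled libraries to replicate 1 of G3 mTerc-/-Puma+/+ (log axis) for 18 genes, with bars for the 95% counting interval. The mast cell chymase and tryptase genes, Mrgprb1, Mrgprb2 and Tph1 lie between 10.5 and 30.7. Other granule and surface genes do not, with Il1rl1 at 2.45, Kit and Cpa3 near 1, Fcer1a at 0.763 and Ms4a2 at 0.558. Mcpt8 and Prss34 lie at 0.389 and 0.38.

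A sum of stromal and endothelial markers was also highest in these 2 libraries. The summed level of 6 stromal and endothelial markers was 1880 CPM in replicate 2 of the double-knockout-labelled libraries and 1842 CPM in replicate 1 of G3 mTerc-/-Puma+/+, beside 390 to 1238 CPM in the other 13 libraries, and all 6 had counts in every library. Which genes made up the sum differed. Col1a1, a collagen chain, was at 294 CPM in the first and at 1349 CPM in the second, whereas Cxcl12, a chemokine of marrow stroma, was at 1416 and 368 CPM. Kitl, which encodes stem cell factor, was at 47.4 and 10.6 CPM, and Lepr was at 71.4 and 12.9 CPM. In the second library, Cxcl12, Kitl and Lepr lay within the ranges of 12 other libraries (200 to 670, 5.16 to 19 and 6.64 to 33.2 CPM). Its sum thus rested largely on Col1a1. Pecam1, an endothelial marker, was at 44.1 CPM in the first library, below the 77.4 to 125 CPM of the other 14. The part of these cells in the protease levels was not tested.

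The 5 remaining members were abundant in every library and formed the second set. Prss34 was the highest, with a median over the 14 libraries of 1016 CPM per kilobase, followed by Mcpt8 at 679, Cpa3 at 109, Fcer1a at 66.2 and Ms4a2 at 19.2 CPM per kilobase. The order of Prss34 and Mcpt8 was the same in each of the 14 libraries, since their ratio per kilobase ran from 1.14 to 1.67. In the same libraries, the highest level of Mcpt4 per kilobase was 15.9 CPM.

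Mcpt8, the basophil granzyme-like protease, was at 591, 1105 and 528 CPM in WT and at 768, 881, 1226 and 890 CPM in Puma-/-. It was at 635, 369, 534 and 720 CPM in G3 mTerc-/-Puma+/+, and at 431, 387 and 951 CPM in replicates 1, 3 and 4 of the double-knockout-labelled libraries. Means were 741 ± 317 CPM (SD, n = 3), 941 ± 198 (n = 4), 565 ± 151 (n = 4) and 589 ± 314 (n = 3). The Puma-/- mean was the highest, but 1 WT library and 1 double-knockout-labelled library lay within its range. All Puma-/- libraries lay above those of G3 mTerc-/-Puma+/+, though narrowly, with 768 CPM in the lowest beside 720 CPM. The share of all genes without overlap was not counted for this pair, and every other pair of groups overlapped.

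Prss34, the tryptase-like protease of basophils, was at 1080, 1917 and 926 CPM in WT and at 1337, 1794, 2161 and 1592 CPM in Puma-/-. It was at 1205, 681, 1022 and 1274 CPM in G3 mTerc-/-Puma+/+, and at 856, 696 and 1321 CPM in replicates 1, 3 and 4 of the double-knockout-labelled libraries. The means were 1308 ± 533 CPM (SD, n = 3), 1721 ± 348 (n = 4), 1045 ± 265 (n = 4) and 957 ± 325 (n = 3). All 4 Puma-/- libraries lay above both mTerc-/- groups, though narrowly, with 1337 CPM in the lowest beside 1321 CPM. The share of all genes without overlap was counted only against the double-knockout-labelled libraries (9.57%). The WT libraries ran from 926 to 1917 CPM, within the 681 to 2161 CPM of the 14 libraries.

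Cpa3, the carboxypeptidase, was at 145, 221 and 114 CPM in WT, at 170, 214, 258 and 224 CPM in Puma-/-, and at 164, 117, 168 and 179 CPM in G3 mTerc-/-Puma+/+. Replicates 1, 3 and 4 of the double-knockout-labelled libraries were at 106, 111 and 142 CPM. Means were 160 ± 55.3 CPM (SD, n = 3), 216 ± 36.4 (n = 4), 157 ± 27.2 (n = 4) and 120 ± 19.5 (n = 3). The Puma-/- libraries all lay above the double-knockout-labelled ones, while WT and G3 mTerc-/-Puma+/+ did not differ beyond their spread.

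The receptor chains followed the same order. Fcer1a, the alpha chain that binds IgE, was at 67.3, 108 and 57.3 CPM in WT, at 60.5, 88.2, 122 and 89.7 CPM in Puma-/-, at 62.7, 51.4, 64.9 and 75.8 CPM in G3 mTerc-/-Puma+/+, and at 40.8, 49.3 and 69.9 CPM in replicates 1, 3 and 4 of the double-knockout-labelled libraries. Ms4a2, the beta chain that amplifies the signal, was at 53.8, 87.2 and 36.2 CPM in WT, at 61.5, 87.8, 93.2 and 79.4 CPM in Puma-/-, at 51, 33.2, 51.2 and 54.3 CPM in G3 mTerc-/-Puma+/+, and at 35.6, 38.1 and 58.4 CPM in the last group. Puma-/- replicate 3 was the highest library for all 5 genes of the set. Of the 4 groups, Puma-/- had the highest mean and WT the second highest for each of the 5 genes, and the double-knockout-labelled libraries had the lowest for 4 of them, the exception being Mcpt8.

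**Figure D3:**
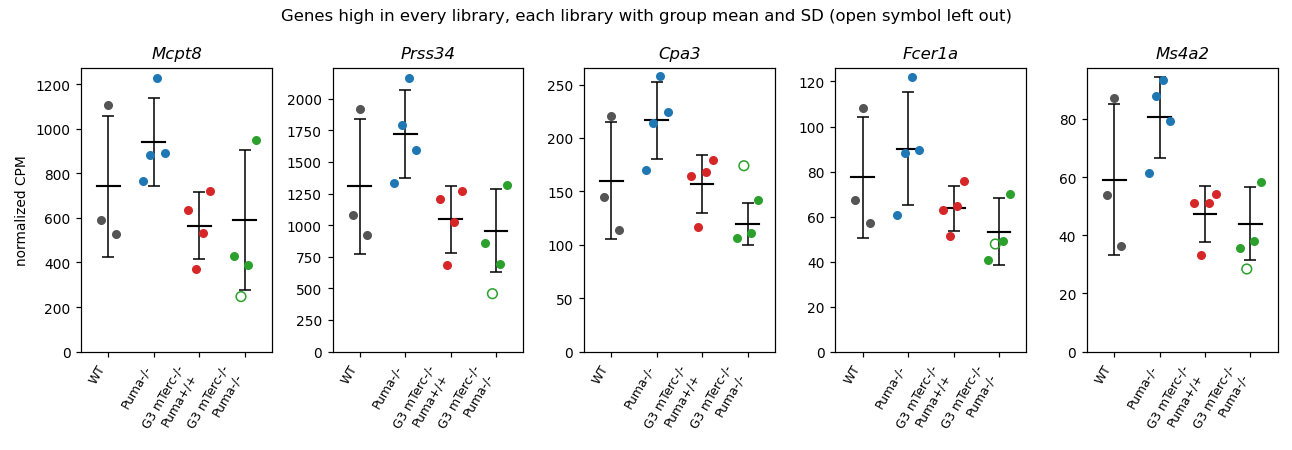
Normalized CPM of the 5 members that were high in every library, by genotype, with 1 point for each library, lines for the mean and bars for the SD, and an open symbol for replicate 2 of the double-knockout-labelled libraries, which is left out of the mean and SD. Puma-/- has the highest mean in each panel, for example 1721 CPM of Prss34, and the WT libraries span much of the range.

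In replicate 2 of the double-knockout-labelled libraries, 4 of these genes were low and Cpa3 was not. Mcpt8 was at 247 CPM, Prss34 at 458 CPM and Ms4a2 at 28.4 CPM, each the lowest of the 15 libraries, and Fcer1a at 47.8 CPM was second lowest. Cpa3 was at 174 CPM there and ranked sixth. The ratio of Cpa3 to Mcpt8 per kilobase was 0.464 in this library and 0.0985 to 0.209 in the other 14. The ratio of Prss34 to Mcpt8, at 1.52, lay within the 1.14 to 1.67 of the other 14. In replicate 1 of G3 mTerc-/-Puma+/+, the library with the next highest mast cell proteases, the ratio of Cpa3 to Mcpt8 was 0.17 and thus within the range of the rest.

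Across the 14 libraries the members also split by how they varied, with the place of Cma1 resting on 1 library. Pearson's r of log2 CPM ran from 0.87 to 0.97 over the 10 pairs of Mcpt8, Prss34, Cpa3, Fcer1a and Ms4a2, with a median of 0.93. Within Mcpt4, Tpsb2 and Cma1 it was 0.97 for Mcpt4 with Tpsb2 and 0.72 and 0.74 for Cma1 with each. Between the sets it ran from -0.25 to 0.24. With the genotype means removed, the pairs of these 5 genes gave 0.88 to 0.98 and those between the sets -0.06 to 0.18. Without replicate 1 of G3 mTerc-/-Puma+/+, the median within Mcpt4, Tpsb2 and Cma1 was 0.26 and values between the sets ran from -0.43 to 0.38. Cma1 then had an r of 0.224 with Mcpt4 and 0.261 with Tpsb2, but 0.379 with Cpa3 and 0.368 with Ms4a2. These correlations are over libraries of one experiment that share genotype and cell composition.

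Neighbouring genes did not always belong to the same set. Mcpt8 and Mcpt4, 19.9 kb apart on chromosome 14, belonged to different sets and had an r of -0.23 over the 14 libraries. Prss34 and Tpsb2, in one cluster on chromosome 17, had an r of -0.15. Mcpt8 and Prss34, which lie on different chromosomes, had an r of 0.97. Other neighbours did go together, with an r of 0.718 for Cma1 and Mcpt4 and of 0.811 for Tpsab1 and Tpsb2. Without replicate 1 of G3 mTerc-/-Puma+/+ these were 0.224 and 0.150.

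**Figure D4:**
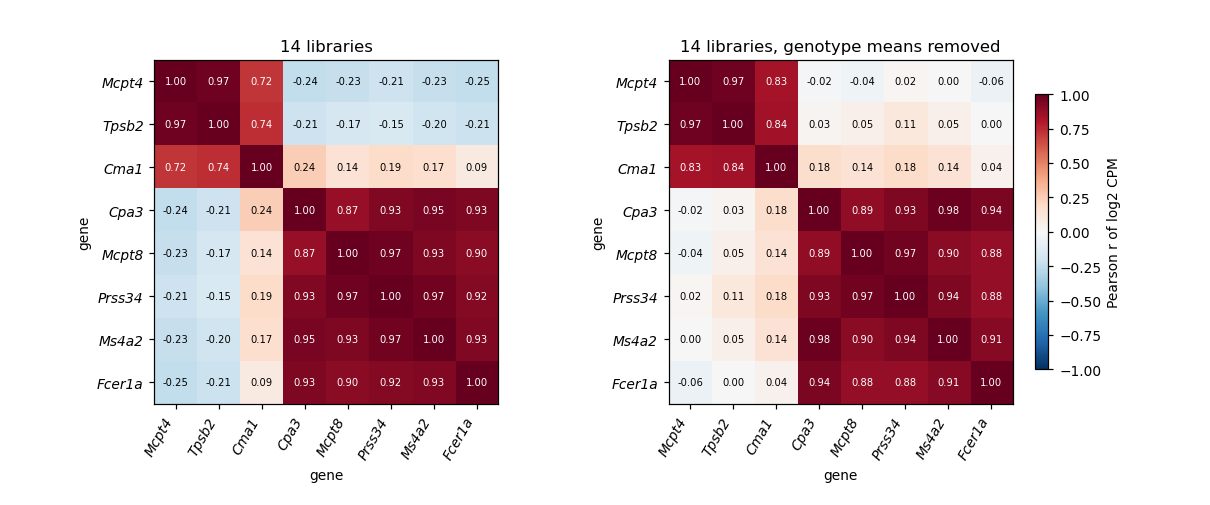
Pearson's r of log2 CPM between 8 members over the 14 libraries, as measured (left) and with the genotype means removed (right), where red is positive and blue negative. Both panels show the block of Cpa3, Mcpt8, Prss34, Ms4a2 and Fcer1a at 0.87 or above and the block of Mcpt4, Tpsb2 and Cma1, with values between the blocks from -0.25 to 0.24.

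The genes most like Mcpt8 and Prss34 over the 14 libraries, members left out, were Poln (r = 0.947), Macrod1 (0.943), Csrp3 (0.936), Alox15 (0.931) and Cdh1 (0.931). Each of the 5 was highest in Puma-/- replicate 3. Alox15 ran from 11.4 to 32.9 CPM and Cdh1, the epithelial cadherin gene, from 14 to 37.7 CPM, and in replicate 2 of the double-knockout-labelled libraries they were at 7.28 and 7.68 CPM. The genes most like Mcpt4, Cma1 and Tpsb2 were Lim2 (r = 0.816), Ptpn22 (0.809), Cdh15 (0.807), Npnt (0.775) and Lpin3 (0.773). Of these, 4 were highest in replicate 1 of G3 mTerc-/-Puma+/+, and no gene outside the members exceeded an r of 0.9 with this set, beside 17 with Mcpt8 and Prss34.

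The spread within genotypes also separated the sets. The SD of log2 CPM within a genotype was 2.9 for Mcpt4, 2.6 for Tpsb2 and 1.58 for Cma1, beside a median of 0.237 over all genes tested. It was 0.522 for Mcpt8, 0.442 for Prss34, 0.428 for Ms4a2, 0.388 for Fcer1a and 0.326 for Cpa3, each above that median too.

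The genotypes were then compared by a fit of all genes in 14 libraries. Puma-/- against WT asks what loss of PUMA changes where telomerase is intact. None of the 8 members fitted was called at an adjusted p under 0.05 by edgeR, beside 0.079% of all genes (15 genes), and none had an unadjusted p under 0.05, beside 10.1% of all genes. DESeq2 and limma-voom also called none. The log2 fold changes were 0.44 for Cpa3 (SE 0.213), 0.45 for Ms4a2 (SE 0.27), 0.40 for Prss34 (SE 0.289), 0.35 for Mcpt8 (SE 0.336) and 0.22 for Fcer1a (SE 0.254), all positive. No member separated the 2 groups without overlap, beside 9.7% of all genes. Without WT replicate 2, the highest WT library for each of these 5, 4 of the 8 fitted members did, beside 28.1% of all genes. The 5 megakaryocyte markers were also higher in Puma-/-, with summed levels of 329 to 544 CPM beside 132 to 283 CPM in WT. The sex markers differed as well. Xist was at 466 to 868 CPM in Puma-/- and 1.73 to 418 CPM in WT. Ddx3y was at most 0.0448 CPM in Puma-/- and at least 21.3 CPM in WT, so that sex and genotype cannot be told apart here. WT replicates 1 and 2 held both Xist (418 and 212 CPM) and Ddx3y (21.3 and 26.5 CPM). Both were above 1 CPM in 9 of the 15 libraries, so many libraries appear to mix male and female cells. The source of this mix, such as host cells or pooled animals, was not tested.

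G3 mTerc-/-Puma+/+ against WT asks what short telomeres change where PUMA is present. edgeR called 0 of the 8 members, beside 0.0369% of all genes (7 genes), as did DESeq2 and limma-voom, and 3 had an unadjusted p under 0.05, beside 3.86% of all genes. The log2 fold changes of Mcpt4, Tpsb2 and Cma1, at 5.58 (SE 2.43), 5.55 (SE 2.29) and 3.07 (SE 1.26), rest on replicate 1. Without that library they were -3.21, -1.95 and 0.02. The 5 genes of the second set had log2 fold changes between -0.39 (Mcpt8, SE 0.332) and -0.03 (Cpa3, SE 0.211), and no member separated the groups, beside 4.07% of all genes. The Ddx3y level was 42.8 to 48.3 CPM in G3 mTerc-/-Puma+/+.

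The double-knockout-labelled libraries against Puma-/- compare cells with and without telomerase on the Puma-/- label. edgeR called 0 of the 8 members, beside 0.306% of all genes (58 genes), limma-voom called none, and DESeq2 called 1, Cpa3. An unadjusted p under 0.05 was found for 4 members, beside 8.42% of all genes. The log2 fold changes were -0.85 for Cpa3 (SE 0.215), -0.85 for Prss34 (SE 0.293), -0.87 for Ms4a2 (SE 0.274) and -0.76 for Fcer1a (SE 0.258), and that of Mcpt8 was -0.68 (SE 0.339). Of the 8 members, 3 (Cpa3, Prss34 and Ms4a2) lay below every Puma-/- library, beside 9.57% of all genes that separated the groups in either direction. With all 15 libraries the count was 2, because replicate 2 held Cpa3 at 174 CPM, above the lowest Puma-/- library at 170 CPM. The log2 fold changes of Mcpt4, Tpsb2 and Cma1 were 3.87, 3.13 and -0.48 with 14 libraries, and 11.03, 10.19 and 5.80 with replicate 2 included. The megakaryocyte markers summed to 125 to 175 CPM in the double-knockout-labelled libraries, below the Puma-/- range. The plasmacytoid dendritic cell markers summed to 184 to 217 CPM there and to 138 to 155 CPM in Puma-/-, and the monocyte and macrophage markers to 2071 to 2190 CPM and 1335 to 1880 CPM. The erythroid markers (83.2 to 203 CPM beside 39.7 to 84.7 CPM), B cell markers (24.9 to 72.8 CPM beside 22.2 to 27.6 CPM) and neutrophil markers (15356 to 22579 CPM beside 12846 to 22755 CPM) overlapped between the groups. Ddx3y ran from 2.88 to 46 CPM. The part of these cells or of sex in the values of the members was not tested.

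The double-knockout-labelled libraries against G3 mTerc-/-Puma+/+ compare the Puma-/- and Puma+/+ labels where telomerase is absent. Bbc3 did not separate these groups, at 13.5 to 17.1 CPM beside 11.8 to 20.8 CPM, so a loss of PUMA rests on the label. edgeR called 0 of the 8 members, beside 0.0738% of all genes (14 genes), none had an unadjusted p under 0.05, beside 6.22% of all genes, and DESeq2 and limma-voom called none. The 5 genes of the second set had log2 fold changes from -0.39 for Cpa3 (SE 0.213) to 0.06 for Mcpt8 (SE 0.334), and no member separated the groups, beside 5.57% of all genes. For Mcpt4 the log2 fold change was -3.34 (SE 2.09), but it was 5.44 without replicate 1 of G3 mTerc-/-Puma+/+ and 3.81 with all 15 libraries, so that 1 library in either group set its sign. The B cell markers summed to 24.9 to 72.8 CPM beside 6.77 to 15.3 CPM in G3 mTerc-/-Puma+/+. The plasmacytoid dendritic cell markers summed to 184 to 217 CPM beside 89.3 to 135 CPM, and the other marker sums overlapped. Ddx3y ran from 2.88 to 46 CPM beside 42.8 to 48.3 CPM. The part of these cells or of sex in the members was not tested.

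The interaction of mTerc and Puma asks whether the difference between the Puma labels differs between the telomerase backgrounds. It too rests on the label of the double-knockout-labelled libraries. edgeR called 0 of the 8 members, beside 0.0527% of all genes (10 genes), as did DESeq2 and limma-voom, and 1 member, Cpa3, had an unadjusted p under 0.05, beside 4.93% of all genes. The interaction was -0.83 for Cpa3 on the log2 scale (SE 0.301), -0.55 for Ms4a2 (SE 0.381), -0.52 for Prss34 (SE 0.408), -0.47 for Fcer1a (SE 0.36) and -0.28 for Mcpt8 (SE 0.474). These 5 comparisons share libraries, so their values are not independent.

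**Figure D5:**
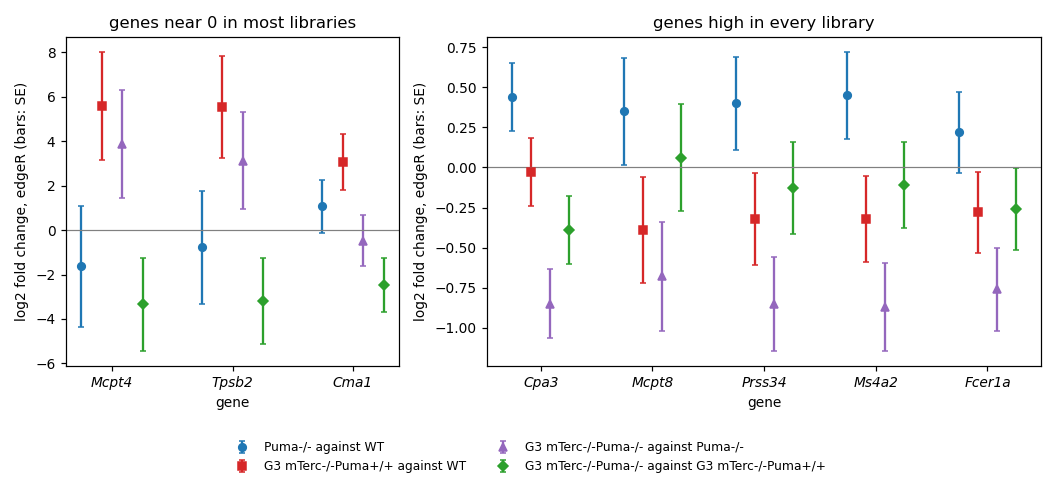
Log2 fold changes from edgeR in the 4 comparisons of 2 genotypes, with bars for the SE, for the 3 mast cell protease genes that passed the count filter (left) and the 5 members that were high in every library (right), on different vertical scales. Against Puma-/-, the double-knockout-labelled libraries were lower for each gene at the right (-0.68 to -0.87), and the left panel has bars of more than 1 log2 unit.

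The other genes of these lineages, 79 in 6 lists, were tested in the same fit, and 69 passed the filter. These lists were chosen with earlier results of these data known, which limits what their p-values can show. In the double-knockout-labelled libraries against Puma-/-, edgeR called 1 of the 69, beside 0.306% of all genes, and DESeq2 called 6. The gene called by edgeR was the eosinophil gene Il5ra, which encodes the alpha chain of the IL-5 receptor. Il5ra was at 0.664, 0.72, 0.654 and 0.901 CPM in Puma-/- and at 0.22, 0.247 and 0.173 CPM in replicates 1, 3 and 4 of the double-knockout-labelled libraries. It fell by 1.78 on the log2 scale (SE 0.247, adjusted p = 0.00594, edgeR). Replicate 2 held it at 0.671 CPM, within the Puma-/- range, and with all 15 libraries no gene of the 6 lists was called. In the other 4 comparisons edgeR called none of the 69 genes, with 14, 4, 9 and 12 genes at an unadjusted p under 0.05 in the order given above (10.1%, 3.86%, 6.22% and 4.93% of all genes), and DESeq2 called 1, 0, 2 and 1.

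The receptors and transcription factors that both lineages use gave no call by edgeR, and the related genes called by DESeq2 are not named here. Il1rl1 was at 20.6 to 24.4 CPM in Puma-/-, above the 8.91 to 17.7 CPM of WT and the 9.77 to 15.7 CPM of replicates 1, 3 and 4 of the double-knockout-labelled libraries. Its log2 fold changes of 0.75 (SE 0.26, adjusted p = 0.412) and -0.81 (SE 0.261, adjusted p = 0.343) did not pass in edgeR. Kit had a log2 fold change of -0.36 in the double-knockout-labelled libraries against Puma-/- (SE 0.104, adjusted p = 0.249, edgeR). Gata2, which is needed for basophil and mast cell progenitors, had -0.62 (SE 0.236, adjusted p = 0.462, edgeR). Fcer1g, the gamma chain that completes FceRI and also serves other receptors, had 0.08 (SE 0.135, adjusted p = 0.921, edgeR), beside -0.87 and -0.76 for the beta and alpha chains. Hdc, which makes histamine, had -0.10 (SE 0.171, adjusted p = 0.924, edgeR), and the surface receptor gene Cd200r3 had -0.35 (SE 0.338, adjusted p = 0.839, edgeR). Gata1 had -0.28 (SE 0.256, adjusted p = 0.826), Mitf 0.16 (SE 0.153, adjusted p = 0.838), Cebpa -0.02 (SE 0.0942, adjusted p = 0.973) and Csf2rb, the shared beta chain of the IL-3 receptor, 0.08 (SE 0.114, adjusted p = 0.902), all by edgeR.

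By list, the median log2 fold change in this comparison was -0.0956 for the 11 fitted genes of the 20 mast cell genes, 0.00495 for 15 basophil genes, -0.055 for 10 receptor genes, -0.0226 for 12 signalling genes downstream of FceRI, -0.0205 for 12 transcription factors and -0.61 for 9 fitted eosinophil genes. The median over all genes was 0.0092 and that of the 8 fitted members -0.717. Of the 6 lists, the eosinophil list also had the largest median in Puma-/- against WT, at 0.493, beside 0.00484 for all genes. Of its 9 fitted genes, 4 lay below every Puma-/- library in the comparison above, beside 9.57% of all genes that separated the groups in either direction. The count for the members was 3 of 8, but these were selected on their levels. The lists too were chosen with earlier results of these data known.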

How the data were processed

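Poly(A)-selected, strand-marked libraries were trimmed with Trimmomatic 0.38 and aligned to GRCm38 (mm10) with STAR 2.5.2b, per the submitters' processing notes and the study's methods. The authors deposited counts of reads per gene without normalization. The annotation release and strand setting are not given in the sources used here. Identifiers were named with GENCODE vM21, which gave a symbol to 45143 of 45706.

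Counts were fitted in R 4.3.3 with edgeR 4.0.16 (TMM factors, filterByExpr, quasi-likelihood test, Benjamini-Hochberg threshold 0.05) over 14 libraries of 4 genotypes, for 5 comparisons. Replicate 2 of the double-knockout-labelled libraries, which the study's expression heatmap does not draw, was shown apart. CPM shown for each library used TMM factors over 15 libraries, and log2 CPM a prior count of 2. Depth was 102790519 to 158367059 counts. The fit was tested on simulated data. Promoters came from RefSeq (GRCm38.p6).

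The members and lists were chosen with earlier results of these data known. Named genes were the 9 members, genes of the 6 related lists with an adjusted p under 0.05, 10 defining genes of the lineages and the 5 genes most like each protease set. The mast cell genes Mrgprb1, Mrgprb2, Tpsg1, Tph1, Mcpt1 and Mcpt2 and the stromal and endothelial genes were named after their values were seen. Alternatives were all 15 libraries, library size alone, no count filter, a replicate block, DESeq2 1.42.0, limma-voom (limma 3.58.1) and leaving out each library. The 8 marker lists of other cells were summed. Over the 14 libraries the sums ranged from 12846 to 27059 CPM for neutrophils, 6.77 to 72.8 for B cells, 322 to 526 for T and NK cells, 89.3 to 217 for plasmacytoid dendritic cells and 1335 to 2457 for monocytes and macrophages. Replicate 2 of the double-knockout-labelled libraries had 30816, 32.7, 640, 70.1 and 1210 CPM of them.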

Additional observations from a re-analysis of the deposited data

Results flagged for a closer look

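For 19 genes, the members and 10 defining genes of the lineages, the highest and lowest library of each genotype with 4 libraries was compared with the rest by Dixon's criterion, in 56 groups. Chance flags about 1 in 20 groups, a rate that does not hold for the members, which were selected on these levels. In all, 12 values stood out, and 10 of them were of members. Of the 12, 6 were in replicate 2 of the double-knockout-labelled libraries. It was far above the other 3 for Mcpt4 (247 CPM), Tpsb2 (169 CPM), Cma1 (160 CPM), Tpsab1 (3.83 CPM) and Gata1 (50.4 CPM, beside 13.6 to 16.6 CPM), and far below them for Fcer1g (70.2 CPM, beside 229 to 258 CPM). Replicate 1 of G3 mTerc-/-Puma+/+ was far above the others for Mcpt4 (17.7 CPM), Tpsb2 (11.6 CPM), Cma1 (10.5 CPM) and Tpsab1 (0.125 CPM). Replicate 2 of that group was below the others for Ms4a2 (33.2 CPM, beside 51 to 54.3 CPM), and replicate 2 of Puma-/- was above them for Mcpt4 (0.0978 CPM, beside at most 0.0091 CPM).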

How the results depend on the processing

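The count of members called stayed at 0 in each comparison under every alternative, except that DESeq2 called 1 against Puma-/-. For all genes, DESeq2 called 136, 46, 287, 172 and 64 genes in the 5 comparisons in the order of the report, against 15, 7, 58, 14 and 10. All 15 libraries gave 4 in G3 mTerc-/-Puma+/+ against WT, and 6 between the mTerc-/- groups, where library size alone gave 8 and no filter 33. limma-voom gave 4 for the interaction. Leaving out 1 library gave 11 to 28, 1 to 8, 18 to 93, 4 to 38 and 5 to 11 genes. Of the related genes, DESeq2 called 1, 6, 2 and 1 in Puma-/- against WT, against Puma-/-, between the mTerc-/- groups and for the interaction. Against Puma-/-, all 15 libraries gave 0, no filter 2 and leaving out 1 library 1 to 2. Members without overlap numbered 0 to 4, 0 to 1, 3 to 5 and 0 to 2 when 1 library was left out. The matching share of all genes was counted only for Puma-/- against WT without WT replicate 2, where it was 28.1% beside 4 members. The other counts have no such share beside them and are not results about the members. The median r within Mcpt4, Tpsb2 and Cma1 was 0.90 with 15 libraries, 0.84 with genotype means removed and 0.26 without replicate 1 of G3 mTerc-/-Puma+/+, an alternative chosen after seeing the data, and between the sets -0.39 and 0.04 under the first pair. The cause was not tested. Fold changes changed sign in 14 of 500 alternatives for the 5 basophil-type genes and in 21 of 300 for Mcpt4, Tpsb2 and Cma1. With the replicate block, 21 genes were called against Puma-/-, and it changed no call of a member. Same-numbered libraries deviated together with r from -0.253 to 0.175 over 18 pairs, 3 of them above 0.1, and 3 of 14 libraries correlated best with their own number, so the numbers were not treated as pairs. Levels under 0.0296 CPM are within the limit that a count of 0 allows.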
